A study of Mus musculus with 30 samples.

Results

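RNA sequencing of 3T3-L1 cells given oxLDL together with pNaKtide was compared with that of cells given oxLDL without the peptide. The libraries were chosen by their sample labels, 5 of the oxLDL + pNaKtide group and 5 of the oxLDL group, 10 of the 30 libraries of the series. Cells of all groups were 3T3-L1 mouse preadipocytes, an established fibroblast-like line that forms fat cells in culture, and all were kept in adipogenic medium. The oxLDL dose was 50 µg/mL and the pNaKtide dose 0.7 µM. The other groups, of 5 libraries each, were Control, pNaKtide alone (0.7 µM), IS (indoxyl sulfate, 100 µM) and IS + pNaKtide. The sources used here give different lengths of treatment, and the labels name adipose tissue in the text on extraction but 3T3 cells as the line. Nothing says that the 5 libraries of a group came from separate cultures, so p-values measure the spread between these libraries, which may be technical. Since each library is a bulk culture, fewer cells of a type and less RNA per cell cannot be told apart.

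The Na/K-ATPase pumps sodium out of cells and potassium in. It also binds the kinase Src, and that pair can take part in a signaling loop that amplifies oxidants, with caveolae, the coated pits of the plasma membrane, as its usual place. The agent tested, pNaKtide, is a peptide that carries a Src-binding stretch of the pump and can enter cells. OxLDL is lipoprotein with oxidized lipids, which enters cells through scavenger receptors such as CD36 and LOX-1 and brings both cholesterol and oxidants. The question of the comparison was which genes differed when the peptide was present during exposure to oxLDL.

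Adding pNaKtide to oxLDL was accompanied by differences in many of the gene families examined. Genes called higher outnumbered genes called lower in cytosolic ribosomal proteins (76 and 0 of 79), the respiratory chain, adipokines (5 and 2 of 11), lipid droplet and lipolysis genes (9 and 0 of 15) and antioxidant genes (16 and 5 of 30). Genes called lower outnumbered genes called higher in BMP and TGFβ genes (14 and 1 of 22), p53 targets (10 and 1 of 18), IL6-type receptor signaling (10 and 0 of 20), HECT ubiquitin ligases (16 and 4 of 25) and a family of zinc finger proteins (50 and 0 of 62). These counts are as measured. A second fit, described below, removed the dependence of counts on GC content and length. There HECT ligases had 8 lower and 5 higher calls, with a median log2 fold change of -0.06. Lipid droplet genes had 7 higher and 1 lower, with a median of 0.07, and IL6-type signaling had 8 lower and 3 higher. The other lists kept their main direction, with 74 higher and 0 lower ribosomal protein genes and 37 lower and 1 higher zinc finger genes. The test was edgeR's quasi-likelihood test, fitted over all 6 groups, and a gene counted as called below a BH-adjusted p-value of 0.1. Of 20139 genes tested, 9722 were called as measured, which is 48.3%, with 4458 higher (22.1%) and 5264 lower (26.1%). In 5720 genes (28.4%) the 5 values of one group lay entirely above or below the 5 of the other. Most changes were small. The median absolute log2 fold change was 0.54 in genes that were higher and 0.64 in genes that were lower, and 521 and 1103 genes, respectively, changed more than 2-fold. Over all genes tested the median was -0.09, and -0.30 when libraries were scaled by their size alone, where 2696 genes were called higher and 7680 lower. In scaling by size, the number of lower calls also reached or passed that of higher calls in cholesterol synthesis (10 and 10), fatty acid and triglyceride synthesis (7 higher and 11 lower), fatty acid oxidation (4 and 8), the proteasome (12 and 12), SRF targets (4 and 6) and histones (6 and 8, against 15 and 1), lists that had more higher calls in the TMM scaling used throughout.

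Base composition differed between 3 of the highest and 3 of the lowest genes, chosen as examples. The start of their coding sequence is shown so that this can be seen in the letters. Each sequence is the first 90 coding bases in GENCODE M21 on GRCm38, written 5′ to 3′ with G and C in capitals, and each lies in a single exon.

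Scand1, chr2:156312259-156312348, minus strand, higher: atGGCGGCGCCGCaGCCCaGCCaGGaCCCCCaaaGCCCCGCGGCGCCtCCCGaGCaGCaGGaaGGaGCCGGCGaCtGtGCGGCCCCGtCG
Reep6, chr10:80330231-80330320, plus strand, higher: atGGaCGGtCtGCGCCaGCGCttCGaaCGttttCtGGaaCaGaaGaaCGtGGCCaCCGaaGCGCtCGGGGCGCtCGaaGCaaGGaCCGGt
Tmem160, chr7:16452963-16453052, plus strand, higher: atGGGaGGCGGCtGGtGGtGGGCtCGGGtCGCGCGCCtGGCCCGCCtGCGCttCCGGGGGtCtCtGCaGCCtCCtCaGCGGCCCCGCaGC
Aspn, chr13:49551664-49551753, plus strand, lower: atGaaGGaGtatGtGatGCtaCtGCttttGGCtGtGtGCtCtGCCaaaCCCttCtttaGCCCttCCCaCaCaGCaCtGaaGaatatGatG
Angpt1, chr15:42676372-42676461, minus strand, lower: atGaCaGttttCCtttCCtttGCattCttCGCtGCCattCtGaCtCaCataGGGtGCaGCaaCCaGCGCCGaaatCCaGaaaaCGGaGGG
Arhgap5, chr12:52516248-52516337, plus strand, lower: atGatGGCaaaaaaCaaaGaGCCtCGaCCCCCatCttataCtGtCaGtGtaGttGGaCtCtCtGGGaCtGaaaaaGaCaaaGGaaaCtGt

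Over these stretches, G and C made up 77.8% of Scand1, 62.2% of Reep6 and 77.8% of Tmem160, and 46.7% of Aspn, 50.0% of Angpt1 and 43.3% of Arhgap5. Over whole transcripts, GC content was 68.4% in the 759 bases of Scand1, 62.0% in Reep6 and 64.2% in Tmem160. It was 34.3% in Aspn, 39.3% in Angpt1 and 36.5% in the 5197 bases of Arhgap5.

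The same held over the transcriptome. Among 12541 genes with a mean of at least 2 CPM (TMM-normalized counts, scaled to a common library size), 1968 of the 2506 genes with the lowest GC content (30.96 to 43.97%) were called lower and 104 higher. In the 2506 genes with the highest GC content (55.19 to 69.68%), 120 were lower and 1547 higher. The median log2 fold change was -0.63 in the first of these sets and 0.36 in the second. By exon length, 1486 of the 2509 shortest genes (up to 1.38 kb) were higher and 317 lower, and 1507 of the 2507 longest genes (from 6.12 kb) were lower and 241 higher. Across genes, the Spearman correlation of the log2 fold change was 0.638 with GC content and -0.468 with length, as a description, since genes share libraries and GC content and length are themselves related (a correlation of -0.239). With pNaKtide alone the median log2 fold change was -0.06 in the AT-rich set and -0.01 in the GC-rich set, and under IS it was -0.05 and 0.02. By length, the medians of the shortest and longest sets were 0.41 and -0.38 under oxLDL, 0.10 and -0.08 with pNaKtide alone and 0.02 and -0.04 under IS.

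**Figure D1:**
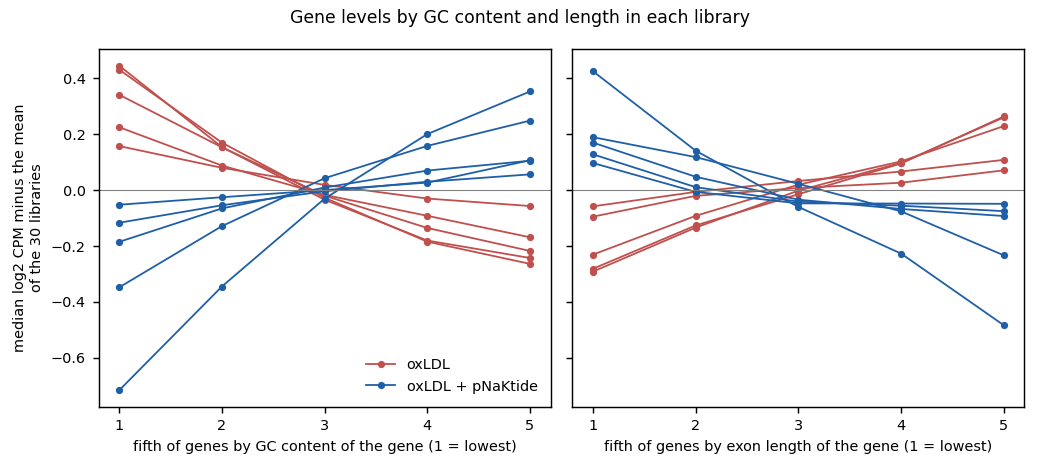
Median log2 CPM of the genes in each of 5 equal sets by GC content (left) and by exon length (right), minus the mean over the 30 libraries, with 1 line per library. The 5 oxLDL + pNaKtide libraries (blue) run from low in AT-rich genes to high in GC-rich genes and from high in short genes to low in long genes, and the 5 oxLDL libraries (red) run the other way.

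This gap was a property of whole libraries. The log2 difference between the 1253 genes of highest GC content (above 57.52%) and the 1254 of lowest (below 41.49%) ran from -0.81 to -0.25 in oxLDL libraries and from 0.19 to 1.24 in oxLDL + pNaKtide libraries, so the groups did not overlap. Control libraries covered -0.36 to 0.66 and pNaKtide libraries -0.26 to 0.52, and IS libraries covered -0.70 to 0.55. All 5 IS + pNaKtide libraries lay below 0, from -0.37 to -0.09, as did the IS libraries other than replicate 4 (0.55). The largest gap, 1.24, was in oxLDL + pNaKtide replicate 4, which was also the shallowest library with 6945498 counts. Total counts were 7903355 to 13516334 in oxLDL libraries and up to 11534363 in oxLDL + pNaKtide libraries. Mitochondrial transcripts took 4.31 to 5.78% of counts with oxLDL and 4.21 to 6.49% with oxLDL + pNaKtide. In oxLDL + pNaKtide replicate 1, 3 loci with ribosomal RNA-like reads took 1.47% of counts, against 0.0832 to 0.255% in the other 9 libraries. The first principal component held 65.3% of the variance and separated the groups, with oxLDL libraries at -40.8 to -14.2 and oxLDL + pNaKtide libraries at 14.2 to 64.5. No batch is named in the labels, and what set this gap was not tested.

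**Figure D2:**
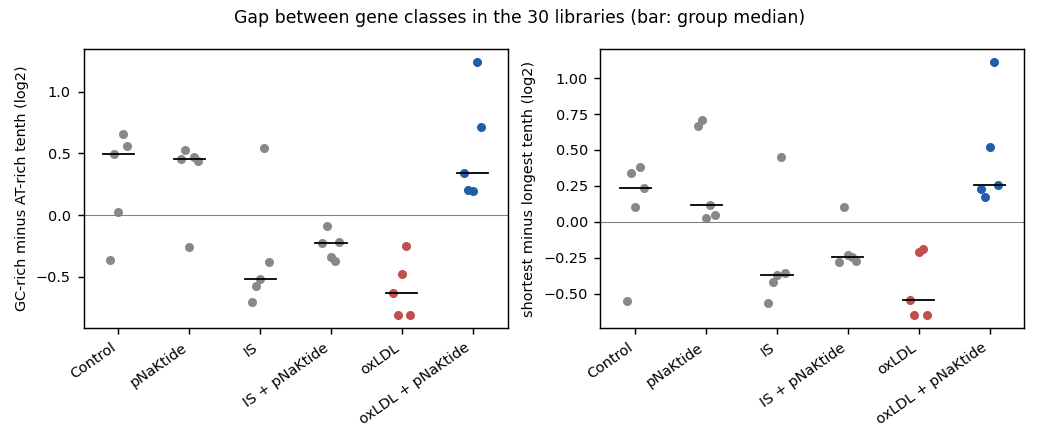
Log2 gap in expression between the most GC-rich and most AT-rich genes (left) and between the 1255 shortest and 1255 longest genes (right), 1 point per library with the group median as a bar, in all 6 groups. All oxLDL libraries (red) lie below 0 and all oxLDL + pNaKtide libraries (blue) above 0 on both axes, and Control replicate 1, pNaKtide replicate 3 and IS replicate 4 lie on the other side of 0 from the rest of their groups in the left panel.

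Because the gap moved with the groups, the comparisons were fitted a second time with the dependence of counts on GC content and length removed library by library. Then 3801 of 20107 genes were higher (18.9%) and 3600 lower (17.9%). Of the 4458 genes called higher as measured, 2687 were still called higher, 1695 were not called and 73 were called lower. Of the 5264 called lower, 2563 stayed lower, 2391 were not called and 301 were called higher. The few remaining genes of both directions were not part of the second fit. The words "with the trend out" mark values of this second fit. In scaling by library size alone, the number of members called higher was lower by more than 1.5 times in 19 of 43 gene lists and that of members called lower was greater by more than 1.5 times in 20, with no list moved that far the other way.

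The cells carried the adipocyte program in both groups. Adipocyte markers summed to 12230 to 16300 CPM with oxLDL and 15260 to 17390 CPM with oxLDL + pNaKtide, and 5 of 10 were called higher and none lower. Of 9 preadipocyte or fibroblast markers 2 were higher and 2 lower, with sums of 1765 to 2092 and 1780 to 3218 CPM. Macrophage or leukocyte markers summed to 8.37 to 12.3 and 9.03 to 13.7 CPM, with Ptprc and Itgam at 0 counts in the 10 libraries. Endothelial markers summed to at most 0.355 CPM, with Tie1 at 0 counts. Muscle markers summed to 25.5 to 33.6 and 37.7 to 64.2 CPM, with 2 of 4 tested members higher and Actc1 and Myog at 0 counts. Brown adipocyte markers summed to 7.66 to 10.96 and 3.15 to 7.35 CPM, with 2 of 3 tested members lower, Prdm16 at 0 counts and Ucp1 at 1 count. With the trend out, adipocyte markers had 5 higher and 0 lower calls and preadipocyte or fibroblast markers 4 and 3. Muscle markers then had 1 and 0, and brown adipocyte markers 0 and 0. By library size these counts were 3 and 1, 2 and 4, 1 and 0, and 0 and 2.

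Among called genes whose log2 CPM averaged 4 or more and whose groups did not overlap, the furthest decrease was in Aspn, which encodes asporin, a small leucine-rich proteoglycan that binds collagen. It was at 251, 291, 194, 165 and 272 CPM in oxLDL libraries and at 55.5, 72.1, 88.2, 41.4 and 38.6 CPM in oxLDL + pNaKtide libraries. Every library with the peptide lay below every library without it, and the Control mean was 95.8 ± 21.7 CPM (SD over 5 libraries, as for all means below). The log2 fold change was -1.98 ± 0.25 (SE) with a BH-adjusted p-value of 8.07e-06, and -1.19 with the trend out. Angpt1, the angiopoietin that activates the endothelial receptor Tie2, was at 122, 146, 109, 103 and 139 CPM with oxLDL and at 46.2, 47.8, 46.6, 23.3 and 36.4 CPM with oxLDL + pNaKtide. The groups did not overlap, with replicate 4 the lowest, and the log2 fold change was -1.62 ± 0.19 (BH-adjusted p-value 3.63e-06; -0.85 with the trend out). Arhgap5, a GTPase-activating protein, was at 74.9, 100.3, 67.6, 60.0 and 95.0 CPM with oxLDL and at 28.8, 35.03, 23.2, 9.44 and 23.4 CPM with the peptide. Its fall of 1.72 on the log2 scale was again complete in that no values overlapped, and with the trend out it was 0.68 in the same direction. The other genes of this rank were Samd9l (-1.65), an interferon-induced gene, Klhl9 (-1.55), Clec2d (-1.53), Ifi202b (-1.50), another interferon-induced gene, Fam126b (-1.46) and Pik3c2a (-1.46), a lipid kinase of membrane traffic. Their log2 fold changes with the trend out ran from -1.44 in Clec2d to -0.44 in Fam126b, all still called.

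Among increases by the same rule were Rn7s1 and Rn7s2, the RNA of the signal recognition particle, of which Rn7s1 is described with the other noncoding RNAs. Scand1 was at 19.7, 21.0, 26.7, 31.0 and 22.4 CPM with oxLDL and at 52.2, 46.7, 51.5, 94.0 and 74.4 CPM with oxLDL + pNaKtide. All values with the peptide were the higher ones, replicate 4 most of all, and the log2 fold change was 1.40 ± 0.27 (BH-adjusted p-value 0.000165; 0.62 with the trend out). Reep6, a protein that shapes the endoplasmic reticulum, was at 24.3, 22.9, 27.7, 30.4 and 23.7 CPM with oxLDL and at 62.7, 54.7, 48.9, 79.5 and 85.3 CPM with the peptide. Its log2 fold change was 1.36 ± 0.20, and 0.94 with the trend out, without overlap between the groups. Tmem160 (1.32), the histone H2afj (1.28), the ATP synthase subunit Atp5d (1.24), Ltc4s, which makes leukotriene C4 (1.23), the ribosomal protein Rpl13 (1.22) and the histone Hist1h2al (1.22) completed this rank. With the trend out these 6 values were 0.58, 0.93, 0.80, 0.60, 1.07 and 0.29, and all 6 were still called.

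**Figure D3:**
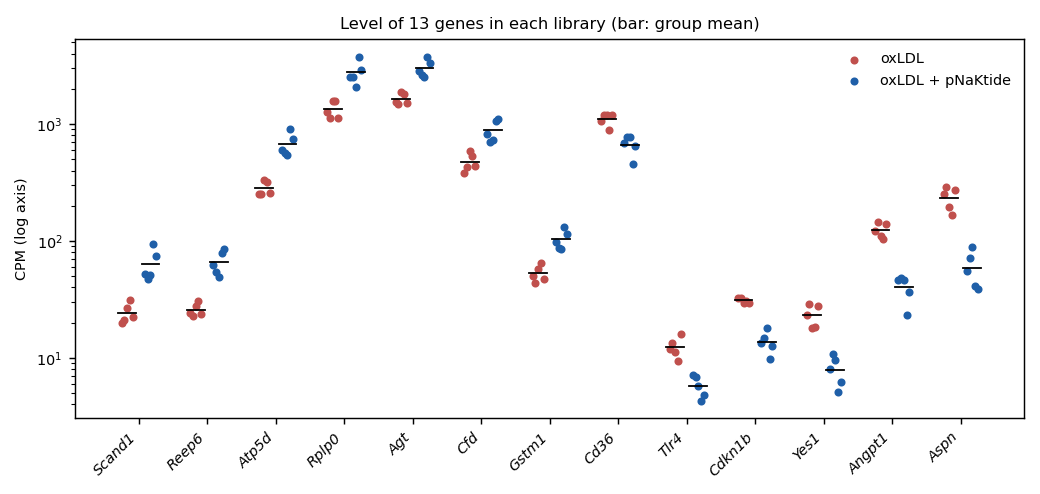
Levels of 13 genes in CPM on a log axis, 1 point per library, oxLDL in red and oxLDL + pNaKtide in blue, with the group mean as a bar. In each of the 13 genes the 5 red and the 5 blue points do not overlap, with the blue points higher in the 7 genes from Scand1 to Gstm1 and lower in the 6 genes from Cd36 to Aspn.

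Of the 12 subunits of the Na/K-ATPase and their FXYD regulators that were tested, 5 were higher and 1 lower, with a median log2 fold change of 0.36 (4 and 2, with a median of 0.20, with the trend out). The beta subunit Atp1b1 was at 3.11, 3.27, 2.47, 2.74 and 2.74 CPM with oxLDL and at 1.51, 2.43, 1.95, 0.993 and 1.81 CPM with oxLDL + pNaKtide. These low values did not overlap, and the log2 fold change was -0.69 ± 0.20 (BH-adjusted p-value 0.00639; -0.66 with the trend out). The regulators Fxyd1 and Fxyd5 each rose by 0.62 on the log2 scale, of which Fxyd1 was not called with the trend out (0.24). For Atp1b3 the change of 0.14 passed the threshold narrowly (BH-adjusted p-value 0.0997) and lost its call when any of 8 of the 10 libraries was left out.

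Of 8 Src family kinases and their inhibitor Csk that were tested, 1 was higher and 3 lower (0 and 3 with the trend out), and the median log2 fold change was -0.15. Src itself was at 30.9, 28.0, 24.8, 29.2 and 27.8 CPM with oxLDL and at 20.7, 22.1, 25.5, 22.3 and 22.1 CPM with oxLDL + pNaKtide. The groups overlapped through a single library of each, and the log2 fold change was -0.32 ± 0.08 (BH-adjusted p-value 0.00205; -0.59 with the trend out). Yes1, a close relative of Src, was at 23.01, 28.7, 18.03, 18.4 and 27.6 CPM with oxLDL and at 7.99, 10.8, 9.59, 5.13 and 6.14 CPM with the peptide. Its fall of 1.53 on the log2 scale, and that of Frk of 1.33, left no overlap and were called with the trend out (-0.83 and -0.66). Csk, which phosphorylates and inactivates Src, rose by 0.42 and was not called with the trend out (0.10).

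Genes of the caveolar coat moved both ways, 3 higher and 3 lower of 8 tested (3 and 1 with the trend out). Cav1, the main structural protein of caveolae, was at 792 ± 78.9 CPM with oxLDL and 799 ± 102 CPM with oxLDL + pNaKtide. That log2 fold change of 0.01 was -0.21 by library size and 0.52 with the trend out, so no direction can be given for Cav1. Cavin3 was at 78.2, 75.0, 91.4, 98.7 and 74.6 CPM with oxLDL and at 125, 120.0, 117, 177 and 144 CPM with the peptide, with no overlap. It rose by 0.71 on the log2 scale, and by 0.30 with the trend out. Ehd2, an ATPase at the neck of caveolae, rose by 0.64 and Cavin1 by 0.28 (0.49 and 0.02 with the trend out). Cav2 was called lower (-0.73 ± 0.15), while its value with the trend out was 0.10 and not called.

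Receptors that take up lipoproteins were called higher in 2 and lower in 5 of 14 tested, with a median log2 fold change of -0.19, and in 3 and 2 with the trend out. Cd36, the scavenger receptor for oxLDL and fatty acids, was at 1069, 1196, 1192, 895 and 1192 CPM with oxLDL and at 689, 773, 774, 456 and 648 CPM with oxLDL + pNaKtide. No values overlapped, the Control mean was 768 ± 101 CPM, and the log2 fold change was -0.73 ± 0.14 (BH-adjusted p-value 0.000159). With the trend out the same gene was at 0.05 and not called. Olr1, which encodes the oxLDL receptor LOX-1, behaved alike, with -0.43 ± 0.15 as measured and 0.17 with the trend out, and it was not called without oxLDL + pNaKtide replicate 4. Vldlr fell by 0.59 and was at -0.03 with the trend out. Scarb1, the HDL receptor, was at 259, 249, 289.9, 292 and 249 CPM with oxLDL and at 361, 343, 342, 435 and 439 CPM with the peptide. It rose without overlap by 0.52 ± 0.10 (BH-adjusted p-value 0.000227), and by 0.77 with the trend out. Without oxLDL + pNaKtide replicate 5, 1 receptor was called higher. In place of 5, 3 receptors were called lower without oxLDL replicate 4 or without oxLDL + pNaKtide replicate 1, 2, 4 or 5.

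Of 25 genes of the pathway and its SREBP2 control, 13 rose and 8 fell, with a median log2 fold change of 0.34, and 17 rose and 2 fell with the trend out. Mvd, which makes isopentenyl pyrophosphate, was at 53.9, 49.7, 57.9, 57.9 and 44.6 CPM with oxLDL and at 90.9, 88.6, 92.0, 123 and 103 CPM with oxLDL + pNaKtide. Values did not overlap, the Control mean was 101 ± 19.7 CPM, and the log2 fold change was 0.91 ± 0.14 (BH-adjusted p-value 2.14e-05). Mvk, the mevalonate kinase, rose by 0.89, Ebp, a sterol isomerase, by 0.87 and Acat2 by 0.34, all called with the trend out as well (0.58, 0.76 and 0.32). By library size Acat2 was at 0.11 and not called. Insig1, which retains the SREBP complex in the endoplasmic reticulum when sterols are plentiful, was at 296, 299, 281, 265 and 301 CPM with oxLDL and at 169.9, 180.1, 248, 130.4 and 147 CPM with the peptide. It fell without overlap by 0.72 on the log2 scale (-0.62 with the trend out), as did Sc5d by 0.88 (-0.37). Cyp51 was not called as measured (-0.11), was called higher with the trend out (0.17) and lower by library size (-0.33), so no direction can be given for it. Without oxLDL + pNaKtide replicate 4, 5 genes of the pathway were called lower.

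Of 12 genes of cholesterol efflux and of LXR, the nuclear receptor for oxysterols, 6 were higher and 4 lower (5 and 2 with the trend out). Both receptors rose. Nr1h3, which encodes LXRα, was at 110.4, 117, 143, 134 and 113 CPM with oxLDL and at 186, 193, 169, 258 and 221 CPM with oxLDL + pNaKtide. The groups were separate, and the log2 fold change was 0.73 ± 0.13 (BH-adjusted p-value 7.33e-05; 0.41 with the trend out). Nr1h2, which encodes LXRβ, rose by 0.80 and Lpcat3, an LXR target that remodels phospholipids, by 0.73 (0.45 and 0.58). The transporter Abca1 was at 151, 181, 129.7, 133 and 182 CPM with oxLDL and at 154, 146, 74.6, 79.6 and 218 CPM with the peptide, so that the second group enclosed the first, and it was not called (-0.21 ± 0.21). Its value turned to 0.09 with the trend out, was -0.04 and -0.06 without oxLDL + pNaKtide replicates 3 and 4, and was -0.44 and called without oxLDL + pNaKtide replicate 5, so no direction can be given for Abca1. Abcg1 fell by 0.49 on the log2 scale, and by 0.59 with the trend out.

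Of 11 adipokines tested, 5 rose and 2 fell, with a median log2 fold change of 0.44 (0.22 with the trend out, with the same counts). Adipoq, adiponectin, was at 775, 922, 1125, 942 and 908 CPM with oxLDL and at 1291, 1129, 1176, 1319 and 1438 CPM with oxLDL + pNaKtide. The lowest value with the peptide was just above the highest without it, and the log2 fold change was 0.44 ± 0.13 (BH-adjusted p-value 0.00461; 0.41 with the trend out). Agt, angiotensinogen, was at 1538, 1481, 1892, 1815 and 1508 CPM with oxLDL and at 2870, 2615, 2528, 3758 and 3348 CPM with the peptide. It rose by 0.88 ± 0.14 with no overlap and by 0.50 with the trend out. Cfd, adipsin, rose by 0.90 and Retn, resistin, by 0.71 (0.30 and 0.60 with the trend out). Nampt, which makes a precursor of NAD, fell by 0.74 and was at -0.03 with the trend out.

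Of 18 transcription factors of adipogenesis, 3 were higher and 8 lower, with a median of -0.23 (1 and 8, with a median of -0.27, with the trend out, and 1 and 10 by library size). Pparg, the master regulator of fat cells, was at 148 ± 11.6 CPM with oxLDL and 164 ± 8.07 CPM with oxLDL + pNaKtide and was not called (0.15 ± 0.09). It was called higher in DESeq2 and in 4 other settings (BH-adjusted p-values 0.0575 to 0.0967) and was at -0.07 by library size, so its call and its sign depended on the processing. Cebpa, its partner, was called higher by 0.35, but not with the trend out (-0.07). The early factors Klf4 and Klf5 fell by 0.67 and 0.76, and both were called with the trend out (-0.89 and -0.56).

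Genes of the lipid droplet and of lipolysis rose in 9 of 15 cases and fell in none, with a median log2 fold change of 0.30 (7 and 1, with 0.07, with the trend out, and 4 and 0, with 0.08, by library size). Pnpla2, the lipase ATGL that starts triglyceride breakdown, was at 1457, 1646, 1932, 1762 and 1593 CPM with oxLDL and at 2768, 2458, 2498, 3272 and 3352 CPM with oxLDL + pNaKtide. The groups were far apart, with a Control mean of 2255 ± 311 CPM between them, and the log2 fold change was 0.77 ± 0.12 (BH-adjusted p-value 2.33e-05; 0.48 with the trend out). Lipe, hormone-sensitive lipase, rose by 0.58 (0.42). Cidec, a protein that fuses droplets, was called higher by 0.38 but was at -0.00 with the trend out, and the droplet coat gene Plin1 was not called (0.15, and -0.07 both with the trend out and by library size). Of 25 genes of fatty acid uptake and triglyceride synthesis, 10 rose and 6 fell (16 and 2 with the trend out), and 11 fell by library size. Dgat1, which completes triglycerides, was at 249 ± 22.8 CPM with oxLDL and 413 ± 54.9 CPM with the peptide, a rise of 0.73 ± 0.10 (BH-adjusted p-value 9.15e-06; 0.45 with the trend out). Slc27a4, a fatty acid transporter, rose by 0.87. Neither Lpl nor Fabp4, the lipoprotein lipase and the fatty acid carrier of fat cells, was called as measured (0.01 and 0.03), but both were with the trend out (0.61 and 0.57), and they were at -0.21 and -0.19 by library size.

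Insulin signaling and glucose transport held 5 higher and 8 lower genes of 18 (6 and 3 with the trend out). Slc2a4, the insulin-dependent glucose transporter GLUT4, was at 38.2 ± 3.47 CPM with oxLDL and 51.1 ± 3.63 CPM with oxLDL + pNaKtide, and rose by 0.42. The kinase Akt2 rose by 0.53 (0.41 with the trend out). Irs1, the receptor substrate, was at 62.6, 68.9, 54.0, 53.7 and 71.3 CPM with oxLDL and at 47.5, 40.3, 17.2, 17.2 and 53.4 CPM with the peptide. Replicates 3 and 4 were far below the others of their group, and the log2 fold change was -0.82 ± 0.24 (BH-adjusted p-value 0.00716; -0.69 with the trend out). Without oxLDL + pNaKtide replicate 4, 5 genes of this list were called lower.

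Of 37 nuclear genes of complex I, 32 rose and 1 fell, with a median log2 fold change of 0.53 (23 and 1, with 0.35, with the trend out, and 23 and 4 by library size). Without oxLDL + pNaKtide replicate 3, 2 of them fell. Of 40 nuclear genes of complexes II to V, 27 rose and 1 fell, with a median of 0.51 (24 and 2, with 0.27, and 20 and 8 by library size), and 3 fell without oxLDL + pNaKtide replicate 3 and 2 without oxLDL replicate 1. Atp5g1, which encodes the c-ring subunit of ATP synthase, was at 105, 114, 132, 137 and 103 CPM with oxLDL and at 233, 223, 217, 337 and 278 CPM with oxLDL + pNaKtide. Every value with the peptide was well above the others, and the log2 fold change was 1.12 ± 0.16 (BH-adjusted p-value 1.03e-05; 1.40 with the trend out). Atp5d rose by 1.24, and the complex I subunits Ndufb7 and Ndufa3 by 1.10 and 1.05 (0.80, 0.97 and 0.64 with the trend out). Ndufs1, of the iron-sulfur core of complex I, was the member that fell (-0.62), and was not called with the trend out (-0.19). Cycs, cytochrome c, was the lower call of the other list (-0.31). It lost that call without any of 4 of the 10 libraries and was called higher with the trend out (0.33), so its direction depended on the fit.

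Of the 13 protein-coding transcripts of the mitochondrial genome, 7 rose and 1 fell, with a median of 0.30 (9 and 1, with 0.96, with the trend out). The transcript mt-Co1, of cytochrome oxidase, was at 11682, 12395, 15947, 12545 and 12032 CPM with oxLDL and at 22940, 22323, 18709, 16212 and 20041 CPM with oxLDL + pNaKtide. The lowest value with the peptide was close to the highest without it, and the log2 fold change was 0.63 ± 0.13 (BH-adjusted p-value 0.000234; 1.16 with the trend out). The transcript mt-Atp8 was the member that fell (-1.03). In oxLDL libraries it was at 221, 889.9, 289, 192 and 351 CPM, and without the high second library the log2 fold change was -0.47. Without oxLDL replicate 4 or oxLDL + pNaKtide replicate 2 or 3, and by library size, 2 mitochondrial transcripts were called lower. Enzymes of the TCA cycle were called higher in 3 and lower in 6 of 16 cases (7 and 2 with the trend out), with Mdh2 at 0.56 and Dld at -0.82 (0.53 and -0.19 with the trend out). Fatty acid oxidation held 7 higher and 5 lower genes of 19 (8 and 3 with the trend out). Without oxLDL replicate 3, 5 TCA cycle genes were higher, and without oxLDL + pNaKtide replicate 4, 3 genes of fatty acid oxidation were lower.

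Of 79 genes of cytosolic ribosomal proteins, 76 were higher and none lower, the most uniform of the 43 lists. Their median log2 fold change was 0.73, against -0.09 over all genes tested, and their range was 0.12 to 1.22. With the trend out 74 were higher and none lower with a median of 0.50, and by library size 66 were higher and none lower. Their summed level was 21730 to 28220 CPM with oxLDL and 36970 to 54360 CPM with oxLDL + pNaKtide, the top value again in replicate 4. Rpl13 was at 258, 237, 259, 320.4 and 234 CPM with oxLDL and at 527, 505, 523, 874 and 619.9 CPM with the peptide. The groups were separate, with a Control mean of 419 ± 83.5 CPM, and the log2 fold change was 1.22 ± 0.19 (BH-adjusted p-value 2.5e-05; 1.07 with the trend out). Rplp0, a protein of the ribosomal stalk, rose by 1.05, Rpsa by 1.04 and Rps2 by 1.10. Many genes of this list have near-identical processed pseudogenes with which reads may be shared. Of 3322 processed pseudogenes tested in all, 1141 were higher and 395 lower.

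Messenger RNAs of ribosomal proteins are known to begin with a run of pyrimidines, through which growth signals control their translation. The start is shown for 4 abundant genes of this list that have such a run in RefSeq on GRCm38.p6. Each stretch goes from 40 bases before to 20 from the annotated start, 5′ to 3′ with the run in capitals.

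Rps6, chr4:86857348-86857407, minus strand: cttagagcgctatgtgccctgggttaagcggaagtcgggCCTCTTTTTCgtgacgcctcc
Rps9, chr7:3704001-3704060, plus strand: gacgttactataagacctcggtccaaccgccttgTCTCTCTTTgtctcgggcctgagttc
Rplp2, chr7:141447611-141447670, plus strand: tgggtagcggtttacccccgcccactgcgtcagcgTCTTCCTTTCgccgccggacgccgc
Rps10, chr17:27635225-27635284, minus strand: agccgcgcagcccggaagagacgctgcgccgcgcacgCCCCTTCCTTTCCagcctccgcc

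A run of at least 8 bases that were each C or T, on the coding strand and reaching within 3 bases of the start, was present in 19 of the 58 promoters found for the 79 genes (32.8%). It was present in 2273 of 27025 promoters of all genes (8.41%), in 9.16% of those of genes called higher and in 7.76% of those of genes called lower. Log2 fold changes of the 4 genes shown were 0.73 for Rps6, 0.66 for Rps9, 1.06 for Rplp2 and 0.86 for Rps10. All 4 were called higher.

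Translation factors moved both ways, with 18 higher and 12 lower of 36 and a median of 0.23 (26 and 4, with 0.43, with the trend out). Eef2, which moves the ribosome along, was at 2188, 1944, 2563, 2720 and 2001 CPM with oxLDL and at 3938, 3835, 2854, 4900 and 4381 CPM with oxLDL + pNaKtide, without overlap. It rose by 0.80 ± 0.16 (BH-adjusted p-value 0.000222; 0.53 with the trend out). The helicase Eif4a2 fell by 0.91, and by 0.20 with the trend out.

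Of 37 proteasome genes, 19 rose and 4 fell, with a median of 0.29 (24 and 0, with 0.20, with the trend out, and 12 and 12, with 0.06, by library size). Psmb6, a catalytic subunit, was at 128 ± 17.1 CPM with oxLDL and 204 ± 39.4 CPM with oxLDL + pNaKtide, a rise of 0.67 on the log2 scale. Psmc6, an ATPase of the cap, fell by 0.93, but was not called with the trend out (-0.12). Without oxLDL + pNaKtide replicate 3, 7 genes of the list were called lower. Of 25 ubiquitin ligases of the HECT family, 4 rose and 16 fell, with a median log2 fold change of -0.44 (5 and 8, with -0.06, with the trend out, and 1 and 20 by library size). Nedd4, which marks membrane proteins for removal, was at 1517, 1452, 1521, 1429 and 1495 CPM with oxLDL and at 1228, 1188, 905, 820.4 and 1169 CPM with the peptide. The spread was narrow without the peptide and wider with it, without overlap, and the log2 fold change was -0.48 ± 0.10 (BH-adjusted p-value 0.000351; -0.06 with the trend out). Herc6 fell by 1.51 and was called in both fits (-0.70).

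Of 30 targets of Nrf2, the main activator of antioxidant genes, and other antioxidant enzymes, 16 rose and 5 fell, with a median of 0.41 (the same counts, with 0.22, with the trend out, and 10 lower by library size). Gstm1, a glutathione transferase, was at 50.0, 43.9, 57.2, 65.1 and 47.0 CPM with oxLDL and at 97.8, 86.1, 86.1, 132 and 115 CPM with oxLDL + pNaKtide. All values with the peptide were higher, the Control mean was 78.0 ± 10.8 CPM, and the log2 fold change was 0.97 ± 0.15 (BH-adjusted p-value 1.78e-05; 0.62 with the trend out). The ferritin chains, which store iron, rose as well, Ftl1 by 0.93 and Fth1 by 0.84 (0.43 and 0.54). Gclc, the catalytic subunit for glutathione synthesis, was at 25.8, 22.7, 21.98, 24.0 and 24.6 CPM with oxLDL and at 17.6, 15.4, 14.9, 15.2 and 15.1 CPM with the peptide. It fell without overlap by 0.61 on the log2 scale, as did Txnrd1, thioredoxin reductase, by 0.61 (-0.44 and -0.45 with the trend out), so these established targets of Nrf2 moved against most of their list. Among 7 genes of NADPH oxidases tested, which make superoxide, 1 fell and none rose. The gene that fell was Nox4, at 3.68 ± 0.506 CPM with oxLDL and 1.82 ± 0.280 CPM with oxLDL + pNaKtide (-1.01 ± 0.19), and it was not called with the trend out (-0.10). Another gene of the list was called higher without oxLDL + pNaKtide replicate 1.

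Amino acid synthesis genes under ATF4, the factor of the integrated stress response, rose in 13 of 18 cases and fell in 2, with a median of 0.41 (12 and 1, with 0.35, with the trend out, and 8 and 4 by library size). Phgdh, the first enzyme of serine synthesis, was at 119.8, 112, 151, 146 and 109 CPM with oxLDL and at 199, 191, 176, 282 and 246 CPM with oxLDL + pNaKtide. It rose without overlap by 0.78 ± 0.14 (BH-adjusted p-value 0.000101; 0.44 with the trend out). Asns, asparagine synthetase, rose by 0.50 and Slc7a11, the cystine transporter, by 0.42 (0.62 and 1.28 with the trend out). Chaperones of the endoplasmic reticulum and unfolded protein response genes had no common direction, with 6 higher and 10 lower of 26 (10 and 8 with the trend out). Calr, calreticulin, rose by 0.44, while its relative Canx, calnexin, fell by 0.65 and was not called with the trend out (-0.08). Eif2ak3, the stress sensor PERK, fell by 0.68 (-0.64 with the trend out). Of 27 genes of lysosomes and autophagy, 14 rose and 6 fell (16 and 4 with the trend out), among them Map1lc3a, an LC3 of the autophagosome, by 1.01 and the protease Ctsd by 0.57 (0.37 and 0.25). Lamp2, a lysosomal membrane protein, was called lower (-0.88) and was at 0.02 with the trend out.

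Of 23 genes of TLR4 and NF-κB signaling, 5 rose and 10 fell, with a median of -0.03 (3 and 7 with the trend out). Tlr4, the endotoxin receptor, was at 11.9, 13.4, 11.2, 9.35 and 16.1 CPM with oxLDL and at 7.18, 6.86, 5.69, 4.3 and 4.83 CPM with oxLDL + pNaKtide. It fell without overlap by 1.09 on the log2 scale (BH-adjusted p-value 6.4e-05; -0.32 with the trend out), and the kinase Chuk fell by 1.11 (-0.48). The subunits Rela and Nfkb2 rose by 0.38 and 0.48, and were at 0.03 and 0.16 with the trend out, of which Nfkb2 was called. Of 16 cytokines and chemokines tested, 1 rose and 3 fell (0 and 5 with the trend out), while Tnf and Il1b, with 3 counts apiece in all 30 libraries, fell under the filter on low counts. The higher call was lost without oxLDL replicate 2, 3 or 5 or without oxLDL + pNaKtide replicate 4. Ccl2, the monocyte chemoattractant MCP-1, was at 2.12, 1.77, 2.1, 1.69 and 2.21 CPM with oxLDL and at 0.579, 0.211, 0.888, 0.828 and 1.61 CPM with the peptide. These low values did not overlap, and the log2 fold change was -1.23 ± 0.31 (BH-adjusted p-value 0.00182; -1.11 with the trend out). Ccl7 fell by 0.87 and Cxcl12 by 0.44 (-0.76 and -0.32). Of 20 genes of IL6-type receptors and JAK-STAT signaling, 10 fell and none rose (8 and 3 with the trend out, and 16 fell by library size). Lifr, the receptor for leukemia inhibitory factor, was at 59.0, 60.3, 46.3, 51.5 and 62.4 CPM with oxLDL and at 24.0, 29.4, 28.4, 18.2 and 24.8 CPM with the peptide, a separate and lower range. It fell by 1.16 and Jak2 by 0.80 on the log2 scale (-0.62 and -0.38 with the trend out). Up to 3 genes of that list were called higher without oxLDL replicate 4 or without oxLDL + pNaKtide replicate 1, 2 or 3. Genes of MHC class I presentation held 2 higher and 2 lower of 13, with 4 higher without oxLDL + pNaKtide replicate 3 and 1 higher without oxLDL replicate 2 or 5 or oxLDL + pNaKtide replicate 4. By library size, 0 of these genes were higher and 3 lower.

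Of 22 genes of BMP and TGFβ receptors, ligands and Smads, 1 rose and 14 fell, with a median of -0.46 (1 and 10, with -0.24, with the trend out). The member that rose was Tgfb1 itself, at 43.3, 40.6, 38.8, 50.4 and 39.4 CPM with oxLDL and at 81.8, 85.9, 66.2, 113 and 92.9 CPM with oxLDL + pNaKtide. The ranges were far apart, and the log2 fold change was 1.04 ± 0.19 (BH-adjusted p-value 0.000116; 0.98 with the trend out). The receptors Bmpr1a and Acvr2a fell by 0.84 and 0.99 (-0.17 and -0.25, still called). Of 23 receptor tyrosine kinases tested, 12 fell and none rose (12 and 1 with the trend out), including Pdgfra, a marker of preadipocytes (-0.57, and -0.29 with the trend out). Dlk1, the other classical preadipocyte marker, moved the opposite way, at 101, 73.6, 87.2, 122 and 74.1 CPM with oxLDL and at 161, 163, 127, 269.7 and 199 CPM with the peptide. It rose by 1.00 ± 0.25 (BH-adjusted p-value 0.00157; 0.90 with the trend out), with no overlap.

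Of 12 small leucine-rich proteoglycans, 2 rose and 3 fell (3 and 3 with the trend out), and the largest fall among them was in Ogn, osteoglycin, which like Aspn binds collagen. Ogn was at 18.3, 14.9, 11.5, 10.96 and 13.9 CPM with oxLDL and at 2.08, 3.9, 4.98, 2.32 and 2.01 CPM with oxLDL + pNaKtide, a fall of 2.15 ± 0.33 on the log2 scale (-1.39 with the trend out). Bgn, biglycan, rose by 0.44 (0.48). Collagen chains held 6 higher and 7 lower genes of 27, with 10 higher without oxLDL + pNaKtide replicate 3 and 2 higher by library size. Col6a2, of the microfibrillar collagen of fat tissue, was at 1849, 1881, 1964, 2067 and 1965 CPM with oxLDL and at 3125, 2929, 2365, 4005 and 4318 CPM with the peptide. It rose by 0.78 ± 0.16 without overlap (0.68 with the trend out), and Col12a1 fell by 1.00 (-0.67). Laminins and integrins were called higher in 3 and lower in 8 of 29 (3 and 5 with the trend out), and 3 to 5 were lower without oxLDL replicate 1, 2 or 5 or without oxLDL + pNaKtide replicate 1, 3 or 4. Contractile genes and targets of SRF held 9 higher and 5 lower of 23 (5 and 4 with the trend out), with the intermediate filament gene Des at 1.09 (0.84), and 3 were lower without oxLDL + pNaKtide replicate 5.

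Of 18 p53 targets and inhibitors of cyclin kinases, 1 rose and 10 fell, with a median of -0.35 (0 and 12, with -0.45, with the trend out). Cdkn1a, which encodes p21, was the member that rose (0.39) and was not called with the trend out (0.11). Without oxLDL replicate 4, 3 genes of the list were called higher, and 2 were without oxLDL + pNaKtide replicate 1, 2 or 5. Cdkn1b, which encodes p27, was at 32.6, 32.5, 29.5, 30.8 and 29.5 CPM with oxLDL and at 13.4, 14.9, 17.9, 9.77 and 12.7 CPM with oxLDL + pNaKtide. The values without the peptide were tight and the 2 ranges lay far apart, with a log2 fold change of -1.16 ± 0.16 (BH-adjusted p-value 1.03e-05; -0.68 with the trend out). Trp53inp1 fell by 1.24 (-0.40). Of 30 genes of DNA replication and mitosis, 6 were higher and 7 lower (6 and 3 with the trend out, and 2 and 13 by library size). Among 19 genes of the circadian clock, 3 rose and 7 fell (2 and 6 with the trend out), and 4 were lower without oxLDL + pNaKtide replicate 4 or oxLDL replicate 5. Dbp, an output gene of the clock, was at 8.96, 8.3, 8.77, 9.83 and 7.84 CPM with oxLDL and at 14.9, 13.3, 18.1, 22.8 and 22.8 CPM with the peptide, and rose by 1.07 ± 0.14 (BH-adjusted p-value 6.7e-06; 0.68 with the trend out). Clock, the activator at the core of the system, fell by 1.13 (-0.33). Immediate early genes held 2 higher and 3 lower of 20 (1 and 11 with the trend out, 9 lower by library size and 5 lower without oxLDL + pNaKtide replicate 3). CREB and protein kinase A genes held 4 higher and 10 lower of 20 (4 and 4 with the trend out, and 6 lower without oxLDL + pNaKtide replicate 4). Only 2 of them were called higher without oxLDL replicate 2 or 3 or oxLDL + pNaKtide replicate 4 or 5.

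The lowest median of the 43 lists was in zinc finger genes of the Zfp900 series, a family of DNA-binding proteins. Their median GC content was 38.6%. Of 62 tested, 50 fell and none rose, with a median log2 fold change of -1.37 (37 and 1, with -0.72, with the trend out). Zfp970 was at 26.0, 27.8, 22.7, 22.5 and 32.0 CPM with oxLDL and at 8.69, 12.3, 11.8, 7.78 and 10.2 CPM with oxLDL + pNaKtide. The groups did not overlap, the Control mean was 13.9 ± 5.80 CPM, and the log2 fold change was -1.35 ± 0.25 (BH-adjusted p-value 0.000127; -0.83 with the trend out). Zfp994 fell by 2.1 (-1.28). These genes are close copies of each other, so the share of reads each was given is uncertain. Of 60 histone genes tested, 15 rose and 1 fell, but 5 rose and 13 fell with the trend out and 6 rose and 8 fell by library size. Without oxLDL replicate 1 or oxLDL + pNaKtide replicate 5, 8 histone genes were called higher, and 0 to 3 were called lower when 1 library was left out.

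Of 14 nuclear and structural noncoding RNAs tested, 6 rose and 2 fell, with a median of 0.23 (7 and 0, with 0.35, with the trend out, and 6 and 5 by library size). When 1 library was left out, 4 to 6 were higher and 1 to 3 lower. In 3 transcripts described here, oxLDL + pNaKtide replicate 1 stood far above the other libraries. Rn7s1 was at 10.8, 8.65, 37.7, 21.8 and 12.3 CPM with oxLDL and at 608, 38.9, 55.2, 76.3 and 48.0 CPM with oxLDL + pNaKtide, the 608 in replicate 1. The groups did not overlap, with a log2 fold change of 3.22 ± 0.65 (BH-adjusted p-value 0.000365), which was 1.63 without that library. Rn7sk, which restrains transcription elongation, was at 211 CPM in the same library and at 11.8 to 20.2 CPM in the other libraries with the peptide. Its log2 fold change of 3.19 was 1.40 without replicate 1. CT010467.1, a locus with ribosomal RNA-like reads, was at 11991 CPM there and at 1415 to 2100 CPM in the other 4, and its change of 2.23 was 1.10 without replicate 1. The kit used selects poly(A) RNA, and these 3 transcripts mostly lack a poly(A) tail.

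**Figure D4:**
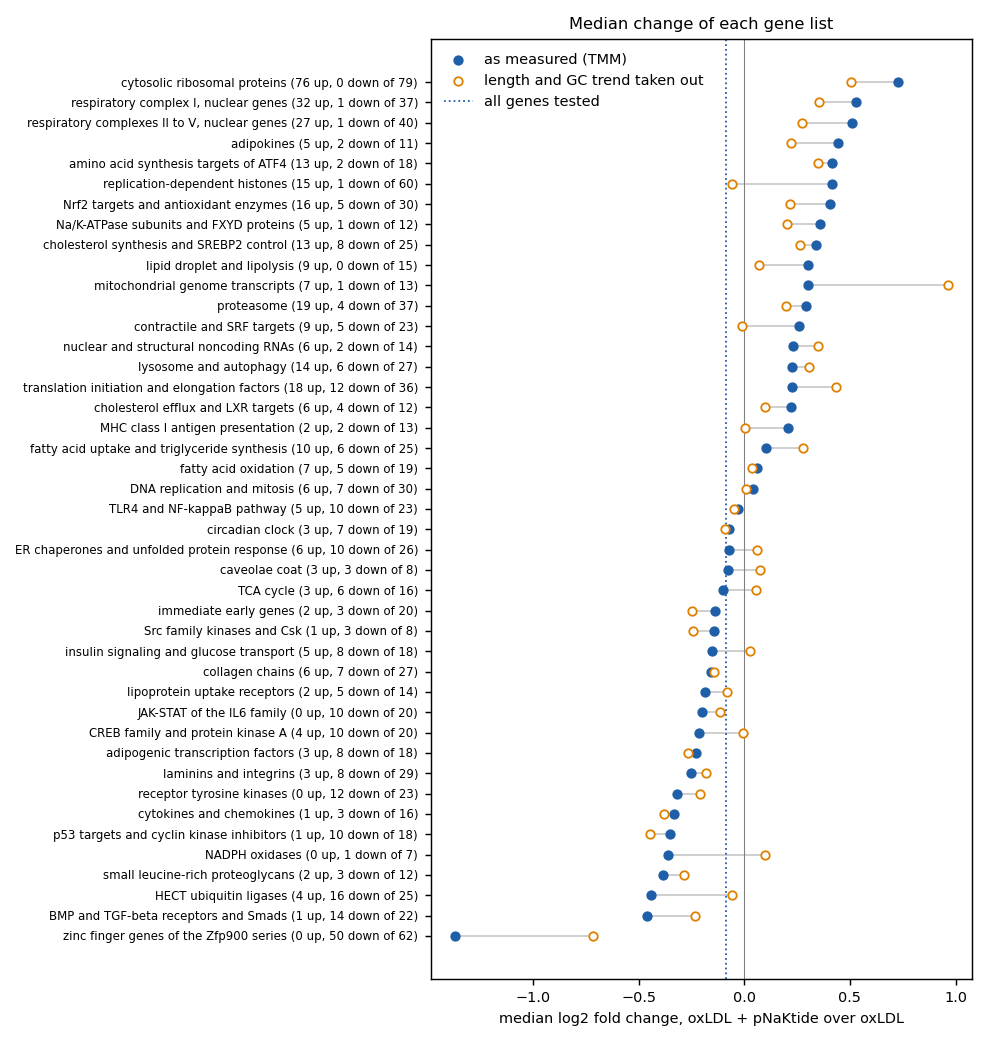
Median log2 fold change of oxLDL + pNaKtide over oxLDL for each gene list, as measured (filled) and with the length and GC trend taken out (open), with the numbers of genes called higher and lower of those tested beside each name. Cytosolic ribosomal proteins (0.73 and 0.50) lie at the high end as measured and the Zfp900 series (-1.37 and -0.72) at the low end, and the dotted line marks the median of all genes tested (-0.09).

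Whether pNaKtide did the same without oxLDL was asked by 2 other comparisons of the series, taken from the same fit over all 6 groups. Between pNaKtide and Control libraries 1 gene was called, with 1233 genes at an unadjusted p-value under 0.05 and 57 calls in DESeq2. Between IS + pNaKtide and IS libraries no gene was called in edgeR, with 564 at an unadjusted p-value under 0.05 and 14 calls in DESeq2. Those 564 genes became 1399 without IS replicate 4. Over the other settings edgeR called up to 26 genes in the first comparison, with the trend out and a replicate block, and up to 9 in the second, with the trend out. The difference between changes was then tested itself. The change under oxLDL differed from that with pNaKtide alone in 4951 genes (24.6%) and from that under IS in 5894 genes (29.3%). By direction, 2575 genes (12.8%) were above and 2376 (11.8%) below in the first test, and 2800 (13.9%) and 3094 (15.4%) in the second.

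Those numbers leaned on a few libraries. The first was 7515 without Control replicate 1, 2116 without pNaKtide replicate 3 and 2529 without oxLDL + pNaKtide replicate 4, as well as 3155 and 2989 without Control replicates 2 and 4, and it was 2316 with the trend out. The second was 3790 without IS replicate 4, 3875 without oxLDL + pNaKtide replicate 4 and 3559 with the trend out. In the GC gap, Control replicate 1 (-0.36), pNaKtide replicate 3 (-0.26) and IS replicate 4 (0.55) lay on the other side of 0 from the other 4 libraries of their groups.

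Among single genes, Aspn fell by 1.98 on the log2 scale under oxLDL, with values of -0.38 ± 0.24 with pNaKtide alone and -0.33 ± 0.24 under IS. The difference was -1.60 ± 0.34 from the first (BH-adjusted p-value 0.0186) and -1.65 ± 0.34 from the second (BH-adjusted p-value 0.00964). Arhgap5 differed by -1.54 and -1.68 and Fam126b by -1.54 and -1.19, and Angpt1 by -1.46 from the change under IS. At the upper end were Rn7s1 (2.81 and 3.31), Rn7s2 (2.82 and 3.32) and CT010467.1 (2.02 and 2.43). Of these, Rn7s1 and CT010467.1 stood far higher in oxLDL + pNaKtide replicate 1 than in any other of the 10 libraries. Library values of Rn7s2 are not given here, and all these differences include that library.

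These shares are the background for the lists. Members of lists were counted in the fit as measured and not with the trend out, where both tests called fewer genes (2316 and 3559). Cytosolic ribosomal proteins had a median log2 fold change of 0.73 under oxLDL, 0.18 with pNaKtide alone and 0.05 under IS, and 53 and 68 of the 79 genes passed the tests of the difference upwards, none downwards. For complex I the medians were 0.53, 0.15 and 0.05, with 18 and 23 of 37 genes upwards and 1 downwards in each test. For the Zfp900 series they were -1.37, -0.10 and -0.22, with 29 and 32 of 62 genes downwards. BMP and TGFβ genes stood at -0.46, -0.11 and -0.03, with 6 and 10 of 22 downwards and 1 upwards in each. For transcripts of the mitochondrial genome the medians were 0.30, 0.17 and 0.14, and 1 of 13 genes passed upwards in each test and 1 downwards in the test against IS.

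**Figure D5:**
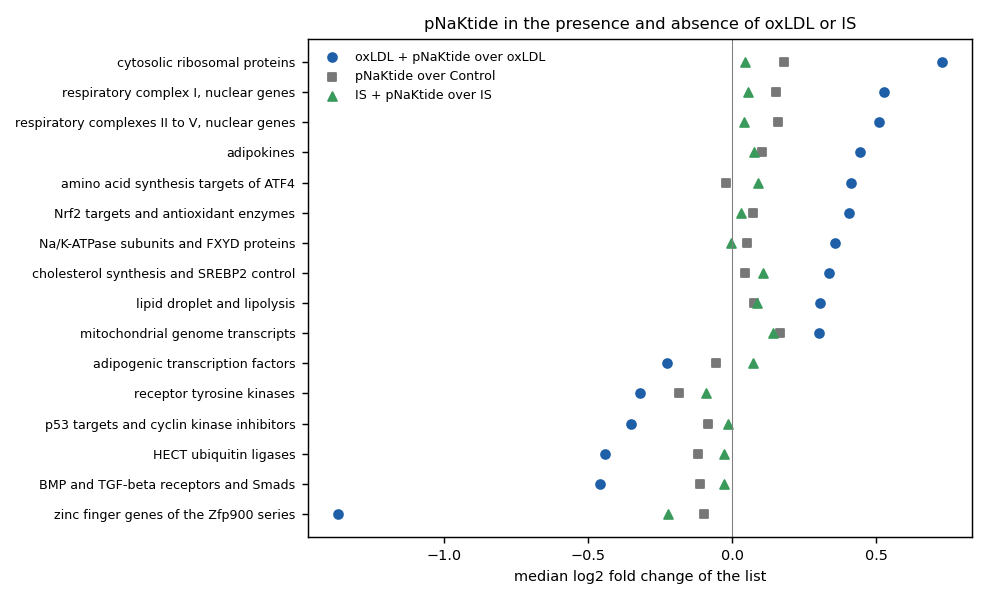
Median log2 fold change with pNaKtide for 16 gene lists under oxLDL (blue circles), without further treatment (grey squares) and under IS (green triangles). The blue circles run from -1.37 in the Zfp900 series to 0.73 in cytosolic ribosomal proteins, and the grey and green symbols of these 16 lists lie between -0.22 and 0.18.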

How the data were processed

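The authors made the deposited counts from paired-end reads, which were trimmed in Trimmomatic 0.38, aligned in HISAT2 2.1.0 to the GRCm38 genome and assigned to genes by GenomicAlignments. No normalization or pooling was applied. The normalized signal values are, as deposited, these counts divided by a size factor per library in DESeq2 1.20.0, and the deposited FPKM values scale them further by gene length. Of the annotation release and strand setting the sources used here say nothing. The signal values were not tested.

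Genes with more than 14 counts over 30 libraries (20139 of 54232) were TMM-scaled and fitted over 6 groups by edgeR 4.0.16 (robust quasi-likelihood, BH threshold 0.1, two-sided; R 4.3.3). The common biological coefficient of variation was 14.0%. Changes are log2 fold changes ± SE, and levels are CPM as mean ± SD. Trends over GC content and length were taken out per library with mgcv 1.9.3. Alternatives used DESeq2 1.42.0, limma 3.58.1 on log2(FPKM + 1) and other filters and scalings, and left out each library. The figures were drawn with matplotlib 3.10.9.

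Comparisons, members and lists were chosen with earlier results of these data known. Genes named were, in each direction, the 10 furthest changes among called genes that averaged a log2 CPM of 4 or more, with groups that did not overlap (leaving out predicted genes and pseudogenes by symbol), the 3 most abundant and up to 3 furthest called members of each list, members of lists of up to 20 genes, markers, and the 3 furthest genes of each test of a difference. Some genes of this rule are not reported here. Depth limits precision for genes of low count. No pair of libraries within a group was a duplicate (chi-square per degree of freedom of at least 2.19 over 20 pairs). In data simulated for this comparison with 19887 genes tested, edgeR called 93 of 100 genes changed by a log2 of 1, 55 of 100 changed by 0.5 and 9 unchanged genes. The simulated libraries held no gap by GC content or length, and only those few genes were changed. They therefore do not give the error rate of the real comparison.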

Additional observations from a re-analysis of the deposited data

Results flagged for a closer look

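A library was far from the other 4 of its group, by the ratio of its gap to the range of the group, in 18 of 266 groups of values checked, and chance alone flags about 1 in 20. In oxLDL + pNaKtide replicate 1, Rn7s1 was at 608.3 CPM (others 38.9 to 76.3), Rn7sk at 211.5 CPM (11.8 to 20.2), CT010467.1 at 11990 CPM (1415 to 2100) and Gclc at 17.6 CPM (14.9 to 15.4), and loci with ribosomal RNA-like reads took 1.469% of counts (0.189 to 0.255%). In oxLDL + pNaKtide replicate 4, ribosomal protein genes took 4.728% of counts (others 3.49 to 3.61%), Vldlr was at 79.63 CPM (110.9 to 115), Ndufa3 at 178.5 CPM (109.7 to 128) and Nox4 at 1.324 CPM (1.87 to 2.01). In oxLDL + pNaKtide replicate 3, Clec2d was at 24.7 CPM (9.93 to 11.5).

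In oxLDL replicate 3, Acat2 was at 359.2 CPM (others 309 to 319.8), Fabp4 at 3087 CPM (2453 to 2610), mt-Co1 at 15950 CPM (11680 to 12540) and Rn7sk at 13.09 CPM (3.88 to 5.18). In oxLDL replicate 4, Rpl13 was at 320.4 CPM (234 to 259), Rela at 53.83 CPM (45.9 to 47.4) and Pik3c2a at 24.58 CPM (30.1 to 32.3). In oxLDL replicate 2, mt-Atp8 was at 889.9 CPM (192 to 351). These patterns were not tested against a cause.

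The change with pNaKtide under oxLDL differed from that with pNaKtide alone in 4951 genes and from that under IS in 5894 genes, by a test of the difference itself in edgeR at a BH-adjusted p-value of 0.1. The log2 difference from pNaKtide alone was -1.60 in Aspn, -1.54 in Arhgap5, -1.54 in Fam126b, 2.81 in Rn7s1, 2.82 in Rn7s2 and 2.02 in CT010467.1. From the change under IS it was -1.65 in Aspn, -1.46 in Angpt1, -1.68 in Arhgap5, 3.31 in Rn7s1, 3.32 in Rn7s2 and 2.43 in CT010467.1.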

How the results depend on the processing

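The number of genes called between oxLDL + pNaKtide and oxLDL, 9722, was 6995 to 10376 over the other settings and 8348 (without oxLDL + pNaKtide replicate 4) to 9806 when 1 of the 10 libraries compared was left out, and 9629 to 9989 when 1 library of another group was. It was 9643 in DESeq2, 8377 at an adjusted p of 0.05 and 9351 on FPKM. The number of genes that differed from the change with pNaKtide alone, 4951, was 2707 at an adjusted p of 0.05, 2316 with the length and GC trend out, 2815 with that and a replicate block together, 8054 without Control replicate 1 and IS replicate 4, and 2116 to 7515 when 1 library was left out. The number that differed from the change under IS, 5894, was 3559 with the trend out and 3790 to 6616 when 1 library was left out. The alternatives that left out oxLDL + pNaKtide replicate 1 together with the trend, and Control replicate 1 with IS replicate 4, were chosen after seeing the data.

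Of 128 genes named, no called gene changed direction when 1 of the 10 libraries compared was left out, while Cav1, Lpl and Fabp4, which were not called and lay near 0, changed sign in at least 1 such fit, and 3 lost their call in at least 1 such fit. By library size alone the sign turned in Atp1b3 (-0.0831), Cav1 (-0.211), Lpl (-0.214), Fabp4 (-0.191), Pparg (-0.0748) and Plin1 (-0.0748). In that scaling 7 further genes kept their sign but lost their call, among them Csk (0.189), Cavin1 (0.0582) and Acat2 (0.111). With the trend out, with the trend out and a replicate block, and with the trend out without oxLDL + pNaKtide replicate 1, log2 fold changes were 0.0954, 0.0950 and 0.0525 in Cav2, 0.0453, 0.0466 and 0.0602 in Cd36, 0.174, 0.171 and 0.190 in Olr1, 0.167, 0.167 and 0.197 in Cyp51, -0.0730, -0.0747 and -0.0790 in Cebpa, 0.328, 0.324 and 0.389 in Cycs and 0.0208, 0.0228 and 0.0209 in Lamp2. Cidec was at -0.00292 and -0.0163 in the first and last of these fits. The cause was not tested. Same-numbered libraries of the oxLDL and oxLDL + pNaKtide groups had correlations of their deviations from -0.0951 to 0.692. Replicates 2 (0.436) and 4 (0.692) matched their own number best in both groups, and replicates 1, 3 and 5 did in neither. Whether libraries of the same number shared a culture or a batch was not tested. With the replicate number as a block, 9995 genes were called in the comparison with oxLDL, 5996 in the first test of a difference and 6690 in the second.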
